A study of Mus musculus with 12 samples.

Results

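The Gimap genes encode a family of small GTP-binding proteins of lymphocytes and lie side by side on mouse chromosome 6. All 8 genes of the family that were looked up by symbol (Gimap1, Gimap3, Gimap4, Gimap5, Gimap6, Gimap7, Gimap8 and Gimap9) were among the 12699 genes measured, and all 8 passed the filter on low values in both cultures. RNA-seq had been performed on hCD2+ B cells sorted after 48 h of culture, in 12 libraries that form 4 groups of 3. CTCFfl/fl; AID-CRETG/+ cells (CTCFfl/fl hereafter, deficient for the chromatin architectural protein CTCF) were compared with CTCFfl/+; AID-CRETG/+ cells (CTCFfl/+, the control) in each of the cultures. In the LPS/IL4 culture, splenic CD43- B cells received LPS (50 µg/ml) and IL4 (5 ng/ml). In the CD3/CD28 culture, B cells were grown with T cells stimulated by anti-CD3 (5 µg/ml) and anti-CD28 (1 µg/ml), all as the sample labels give it, and the methods of the study state other doses for LPS, IL4 and anti-CD28. Mice were 8 to 12 weeks old and each library pooled 2 to 3 of them, so that a library is not a single animal.

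Several features limit these groups as a model of CTCF loss. Cre is driven by AID regulatory sequences and the hCD2 reporter marks the cells that express it, so deletion takes place only in cells that have switched AID on. The controls carry the same Cre and 1 floxed allele, so that every library holds deleted alleles and the comparison is between losing both copies and losing 1. In the co-culture the T cells came with the CD43+ fraction, and the sort for hCD2 is what separates them from the B cells. Per the labels the cultures were separate batches, and culture and batch therefore cannot be told apart. The mean deposited levels of the cultures were also nearly equal, within 0.1 on the log2 scale for 98.8% of the 9905 genes that averaged 5 CPM or more (reads scaled to library size), and no level is compared between cultures here.

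GIMAP proteins carry a GTP-binding domain related to that of septins, and several of them sit on the membranes of lysosomes, endoplasmic reticulum or mitochondria. They are best known for the survival of resting lymphocytes: loss of Gimap5 in rats and mice causes lymphopenia, and mice without Gimap1 in lymphocytes lack mature T and B cells. The family is abundant in resting T and B cells.

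In GRCm38 the 8 genes span chr6:48647234-48770851, a stretch of 123.618 kb, and all are annotated as protein-coding. Their order from the lower coordinate is Gimap8, Gimap9, Gimap4, Gimap6, Gimap7, Gimap1, Gimap5 and Gimap3. Gimap6 and Gimap3 lie on the minus strand and the other 6 on the plus strand. The start of transcription has 9 RefSeq windows for these 8 genes (GRCm38.p6, taken here as the 250 bases before the start), since Gimap8 has an overlapping pair. They are given for the adjacent genes Gimap4 (chr6:48684328-48684577, plus strand) and Gimap6 (chr6:48708245-48708494, minus strand), which fell on opposite sides of the test threshold described below. They are also given for Gimap7 (chr6:48718371-48718620, plus strand) and Gimap5 (chr6:48745947-48746196, plus strand), which rose. They are written from 5′ to 3′, with matches on either strand to AGGAAG (a core of ETS factor sites) or TGTGGT (a core of RUNX factor sites) in capitals.
Gimap4: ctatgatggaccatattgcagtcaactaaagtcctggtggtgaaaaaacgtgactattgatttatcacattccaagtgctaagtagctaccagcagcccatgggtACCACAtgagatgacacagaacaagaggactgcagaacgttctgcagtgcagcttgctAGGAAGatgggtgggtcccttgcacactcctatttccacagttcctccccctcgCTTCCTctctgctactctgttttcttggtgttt
Gimap6: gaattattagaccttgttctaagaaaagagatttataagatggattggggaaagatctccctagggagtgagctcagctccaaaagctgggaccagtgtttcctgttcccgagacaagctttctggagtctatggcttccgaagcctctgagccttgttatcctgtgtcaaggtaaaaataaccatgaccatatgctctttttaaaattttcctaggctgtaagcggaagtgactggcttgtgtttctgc
Gimap7: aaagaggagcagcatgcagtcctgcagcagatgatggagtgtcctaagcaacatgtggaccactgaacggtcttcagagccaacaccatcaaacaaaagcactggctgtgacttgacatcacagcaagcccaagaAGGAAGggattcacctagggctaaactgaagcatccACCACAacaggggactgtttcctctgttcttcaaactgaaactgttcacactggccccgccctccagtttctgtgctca
Gimap5: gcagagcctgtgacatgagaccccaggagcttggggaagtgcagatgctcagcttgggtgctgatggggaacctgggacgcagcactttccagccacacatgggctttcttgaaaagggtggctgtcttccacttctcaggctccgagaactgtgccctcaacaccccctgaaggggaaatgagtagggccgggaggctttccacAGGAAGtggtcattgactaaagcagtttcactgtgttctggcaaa
AGGAAG was found in 7 of the 9 Gimap windows, against 29.5% of all 32841 RefSeq windows of this length, and each gene but Gimap6 had it in a window. TGTGGT was found in the windows of Gimap4, Gimap7 and Gimap1, against 14.0% of all windows. Neither was singled out by the search: CCACCC, a core of KLF factor sites, was in 5 of the 9 windows, against 28.1% of all. GTAAACA (FOXO factors) and TATAAA (the TATA box) were each in 1, against 3.17% and 12.4% of all. No Gimap window held the consensus of the CTCF core motif on either strand, which occurred in 0.509% of all windows. The genes that rose and those that did not were not separated by AGGAAG or TGTGGT, since Gimap6 had neither and Gimap4 had both. For every motif only the letters given were searched, without mismatches. The Gimap6 window holds CGGAAG, which differs from AGGAAG in its leading base, so Gimap6 was not shown to lack an ETS site. These are matches of letters in a short window, and binding was not measured.

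The targeted gene followed its label in all 12 libraries. In the CD3/CD28 culture Ctcf was at 138, 127 and 126 CPM in the CTCFfl/+ libraries 1 to 3 and at 75.9, 76.3 and 72.0 CPM in the CTCFfl/fl libraries, a log2 fold change of -0.80 (SE 0.07, limma, adjusted p = 0.00012). In the LPS/IL4 culture Ctcf was at 134, 143 and 146 CPM against 63.1, 69.4 and 78.3 CPM, a log2 fold change of -1.01 (SE 0.10, limma, adjusted p = 0.00034, and 0.13 without the intensity trend of the fit). Library depth, as recovered from the deposited values, was 6934344 to 11227004 reads in the CD3/CD28 culture and 23469188 to 28130440 reads in the LPS/IL4 culture. The least abundant family member, Gimap9, was represented by 120 to 521 recovered reads per library, and every other member by at least 440.

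The family was dominated by Gimap4. In CTCFfl/+ cells of the CD3/CD28 culture, the level per kb of annotated exon was 208 ± 6.44 CPM per kb (SD, n = 3) for Gimap4, a protein linked to apoptosis and cytokine secretion in T cells. Gimap6, which binds the autophagy protein GABARAPL2, followed at 87.0 ± 3.39 CPM per kb. Gimap1 (59.7 ± 1.10 CPM per kb) and Gimap3 (59.3 ± 1.49 CPM per kb) came next, and their libraries overlapped. Gimap8, the large member with several GTP-binding domains, was at 31.3 CPM per kb, Gimap7 at 26.7, Gimap5 at 15.8 and Gimap9 at 10.3, and no neighbours in this lower part of the order overlapped. The order of the levels in CTCFfl/fl cells was the same apart from Gimap3 being above Gimap1 and Gimap7 above Gimap8, and the libraries of each of these pairs overlapped.

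In the CD3/CD28 culture, 5 of the 8 Gimap genes rose in CTCFfl/fl cells and none fell. The 5 were Gimap6, Gimap7, Gimap1, Gimap5 and Gimap3, which are the 5 consecutive genes at the higher-coordinate end of the cluster. The remaining 3, Gimap8, Gimap9 and Gimap4, are the consecutive genes at the other end and did not pass the test. A gene was called at a limma p below 0.05 after Benjamini-Hochberg adjustment over 12070 genes, of which 9.88% were called higher and 8.76% lower in this culture. The median log2 fold change of the 8 members was 0.32, against 0.01 for all genes tested. The groups of all 5 risen genes did not overlap, which held for 20% of all genes in this direction.

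**Figure D1:**
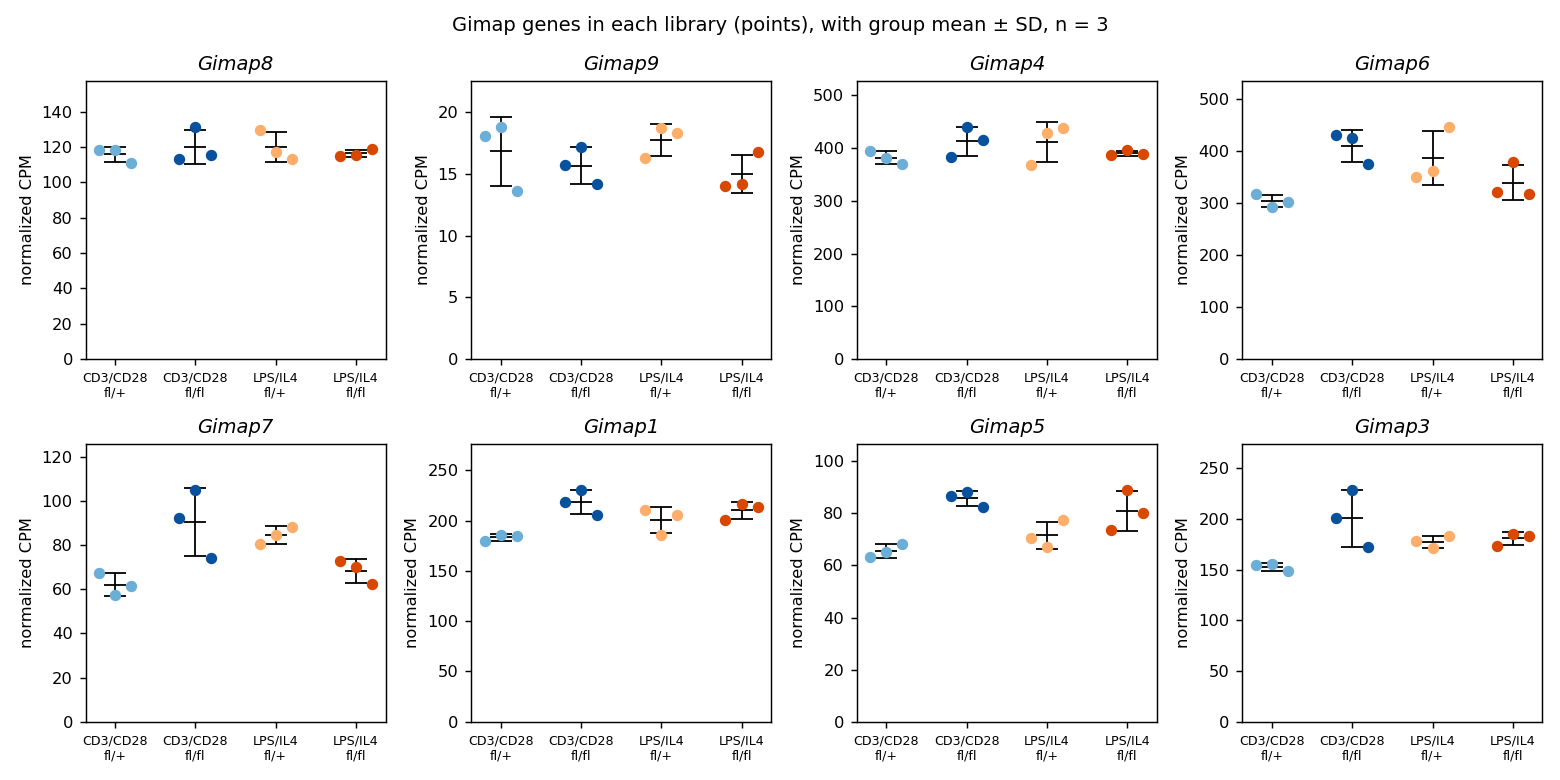
Normalized CPM (vertical axis, from 0) of the 8 Gimap genes in cluster order, with a point for each of the 12 libraries and bars for the group mean ± SD (n = 3). In the CD3/CD28 culture (blue) the CTCFfl/fl points of Gimap6, Gimap7, Gimap1, Gimap5 and Gimap3 lie above all CTCFfl/+ points, and in the LPS/IL4 culture (orange) the groups of every gene except Gimap7 overlap.

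Gimap6 had the firmest rise. It was at 317, 293 and 302 CPM in the CTCFfl/+ libraries and at 431, 424 and 375 CPM in the CTCFfl/fl libraries of the CD3/CD28 culture. The lowest CTCFfl/fl library stood well above the highest control. The log2 fold change was 0.43 (SE 0.07, limma, adjusted p = 0.00275), and the adjusted p ranged from 3.14e-07 to 0.036 over 17 alternative settings.

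Gimap7, a GTPase known to stimulate the activity of other family members, showed the largest fold change of the 8. Its levels were 67.3, 57.3 and 61.6 CPM in CTCFfl/+ and 92.0, 105 and 74.1 CPM in CTCFfl/fl libraries. The CTCFfl/fl libraries were more spread than the controls but lay above them. The log2 fold change was 0.53 (SE 0.12, limma, adjusted p = 0.0123), with an adjusted p of 0.0501 when the CTCFfl/+ library 2 was left out and 0.067 without the intensity trend of the fit, the highest over 17 settings.

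Gimap5, a lysosomal protein needed for the survival of peripheral T cells, was at 63.2, 65.2 and 68.3 CPM in CTCFfl/+ and at 86.7, 88.1 and 82.5 CPM in CTCFfl/fl libraries. Both groups were tight and far apart. The log2 fold change was 0.39 (SE 0.07, limma, adjusted p = 0.00471, at most 0.031 over 17 settings).

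Gimap3, the closest relative of Gimap5 in the mouse and a protein of intracellular membranes, was at 155, 155 and 148 CPM in CTCFfl/+ and at 201, 228 and 172 CPM in CTCFfl/fl libraries. The controls lay close together, and the CTCFfl/fl libraries were spread above them. The log2 fold change was 0.38 (SE 0.09, limma, adjusted p = 0.0169). The adjusted p passed 0.05 without the CTCFfl/+ library 1 (0.0510), without the CTCFfl/+ library 3 (0.071) and without the intensity trend (0.082).

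Gimap1, needed in mice for mature B and T lymphocytes, had the smallest of the 5 rises. It was at 180, 186 and 185 CPM in CTCFfl/+ and at 218, 230 and 206 CPM in CTCFfl/fl libraries, with no overlap. The log2 fold change was 0.25 (SE 0.06, limma, adjusted p = 0.0204). This call was lost when any 1 control library was left out (0.083 without library 1, 0.055 without library 2 and 0.075 without library 3) and without the intensity trend (0.080).

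The 3 genes at the lower-coordinate end had overlapping groups. Gimap4 was at 394, 381 and 371 CPM in CTCFfl/+ and at 384, 439 and 415 CPM in CTCFfl/fl libraries, a log2 fold change of 0.11 (95% interval -0.03 to 0.25, limma, adjusted p = 0.26). Gimap8 was at 119, 118 and 111 CPM against 113, 131 and 116 CPM, a log2 fold change of 0.05 (95% interval -0.11 to 0.21, limma, adjusted p = 0.69). Gimap9, the member with the lowest level, was at 18.1, 18.8 and 13.7 CPM against 15.7, 17.2 and 14.2 CPM, a log2 fold change of -0.09 (95% interval -0.40 to 0.22, limma, adjusted p = 0.70). The interval of Gimap4 reaches the size of the smallest called rise, that of Gimap1 (0.25), and those of Gimap8 and Gimap9 end below it.

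With 3 libraries against 3 the exact two-sided permutation test cannot go below p = 0.1, and it gave 0.1 for each of the 5 risen genes, 0.2 for Gimap4, 0.8 for Gimap8 and 0.6 for Gimap9. The calls therefore rest on the spread that limma estimates across all genes. Nothing in the labels says that the pools of a group came from separate litters or cultures, and the p-values measure the spread between these libraries. The risen genes together made the family larger: the summed level of the 8 genes was 1261 to 1312 CPM in CTCFfl/+ and 1454 to 1664 CPM in CTCFfl/fl libraries. In bulk RNA a change in the share of cells that use a gene and a change in RNA per cell cannot be told apart.

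**Figure D2:**
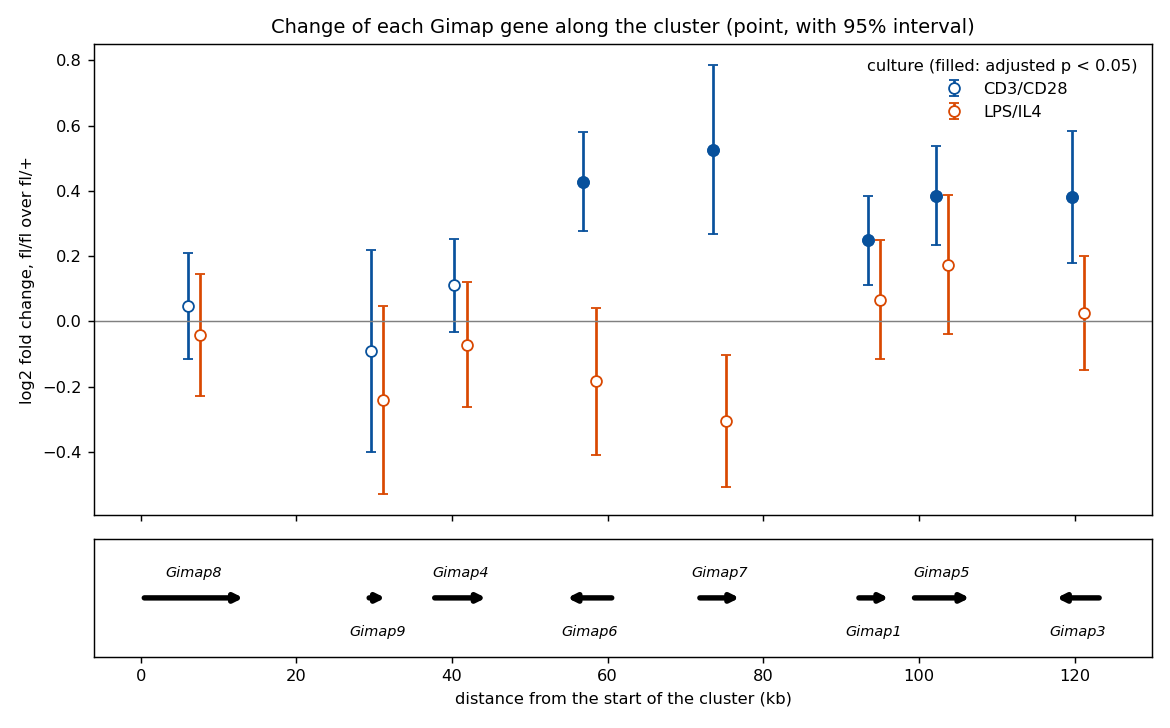
Log2 fold change of each Gimap gene (CTCFfl/fl over CTCFfl/+, point, with the 95% interval of limma as a bar) against its distance from the start of the cluster in kb, with the genes and their strands as arrows in the lower panel. Filled points passed an adjusted p of 0.05. Blue points (CD3/CD28 culture) of the 5 genes from Gimap6 onwards lie between 0.25 and 0.53 and the 3 before it between -0.09 and 0.11. In the LPS/IL4 culture (orange) no gene passed.

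The border between the called and the uncalled genes lay between Gimap4 and Gimap6, which are adjacent, on opposite strands and 9.521 kb apart. The ratio of Gimap6 to Gimap4 within a library is free of any scaling between libraries. It was 0.804, 0.770 and 0.816 in the CTCFfl/+ libraries of the CD3/CD28 culture and 1.12, 0.966 and 0.903 in the CTCFfl/fl libraries, with no overlap. The difference on the log2 scale was 0.32 (exact two-sided permutation p = 0.1, the smallest possible, and 0.35 after Benjamini-Hochberg adjustment over the 7 adjacent pairs). Leaving out 1 library at a time gave 0.23 to 0.39. Of the other 6 adjacent pairs, only Gimap5 relative to Gimap1 had groups that did not overlap in this culture (log2 difference 0.14, exact permutation p = 0.1). These ratios were chosen after the values had been seen and do not pass a test. In the LPS/IL4 culture the Gimap6 to Gimap4 ratio was 0.954, 0.845 and 1.02 in CTCFfl/+ and 0.833, 0.955 and 0.816 in CTCFfl/fl libraries, which overlapped. There 2 other adjacent pairs had groups that did not overlap, Gimap1 relative to Gimap7 (log2 difference 0.37) and Gimap3 relative to Gimap5 (-0.15), each with an exact permutation p of 0.1 and 0.23 after adjustment.

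**Figure D3:**
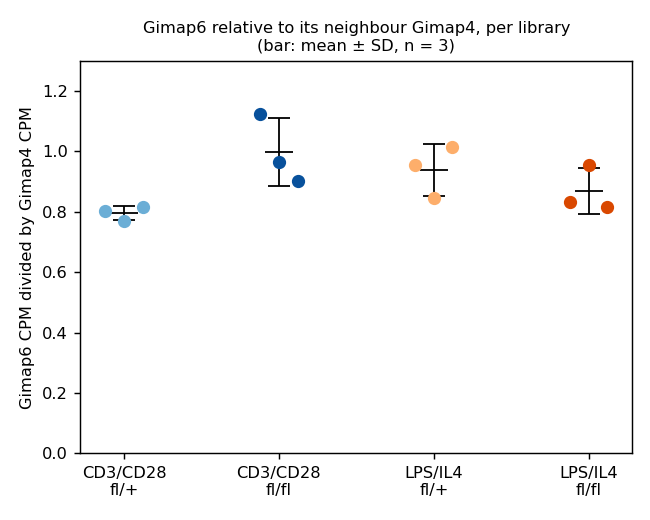
Gimap6 CPM divided by Gimap4 CPM (vertical axis, from 0) in each of the 12 libraries, with bars for the mean ± SD (n = 3). In the CD3/CD28 culture the CTCFfl/fl ratios (0.903 to 1.12) lie above the CTCFfl/+ ratios (0.770 to 0.816), and in the LPS/IL4 culture the ratios overlap.

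In LPS/IL4-stimulated B cells no Gimap gene was called (limma, adjusted p from 0.46 to 0.99). In this culture 0.0334% of the 11962 genes tested were called in either direction. By edgeR's quasi-likelihood test and by DESeq2 on the recovered reads the count was also 0 of 8, and 1 of the 8 had an unadjusted limma p below 0.05, against 6.65% of all genes. That gene was Gimap7, at 80.4, 84.7 and 88.4 CPM in CTCFfl/+ and at 72.9, 70.0 and 62.4 CPM in CTCFfl/fl libraries. Its groups did not overlap, with CTCFfl/fl below the control, as for 5.42% of all genes, and the log2 fold change was -0.30 (SE 0.09, limma, adjusted p = 0.46).

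The other 7 members had overlapping groups in LPS/IL4. Gimap6 was at 351, 361 and 445 CPM in CTCFfl/+ and at 322, 378 and 317 CPM in CTCFfl/fl libraries, with 1 high control. Gimap3 was at 178, 171 and 183 CPM against 173, 185 and 183 CPM, and Gimap1 at 211, 186 and 205 CPM against 200.4, 217 and 213 CPM. For these 2 genes the groups were intermixed. Gimap5 was at 70.4, 67.1 and 77.3 CPM against 73.5, 88.9 and 80.3 CPM, a log2 fold change of 0.17 (95% interval -0.04 to 0.39, limma, adjusted p = 0.86). Gimap4 ranged from 367 to 439 CPM over these 6 libraries, Gimap8 from 113 to 130 CPM and Gimap9 from 14.0 to 18.7 CPM. The log2 fold changes of the 8 genes ran from -0.30 to 0.17 with a median of -0.06, and 3 were positive and 5 negative. The summed level was 1404 to 1570 CPM in CTCFfl/+ and 1357 to 1465 CPM in CTCFfl/fl libraries.

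The difference between the cultures was tested as an interaction over the 12 libraries. It was called for Gimap7 and Gimap6, 2 of the 8 genes, with both higher in CD3/CD28. Over the 11847 genes tested 3.88% were called in this direction. The log2 fold change of Gimap7 in CD3/CD28 minus that in LPS/IL4 was 0.83 (SE 0.16, limma, adjusted p = 0.00864, at most 0.038 over 22 settings). That of Gimap6 was 0.61 (SE 0.14, limma, adjusted p = 0.0170), with 0.056 without the intensity trend as the highest over 22 settings. For Gimap3 it was 0.36 (SE 0.12, limma, adjusted p = 0.084), and it passed when the CTCFfl/fl library 3 of the CD3/CD28 culture was left out (0.0154) or with DESeq2 (0.046). The interaction of Gimap1, Gimap5, Gimap4, Gimap8 and Gimap9 lay between 0.09 and 0.21 and was not called (adjusted p from 0.28 to 0.69). So Gimap5 and Gimap1, which rose in CD3/CD28, were not shown to respond differently in the 2 cultures.

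Reads of some members could be shared with other gene models. Of the 61-base windows in Gimap3 transcripts, 4.97% also occur in Gimap5, and Gimap4, Gimap6, Gimap8 and Gimap9 share none with other genes. Gimap1os, an antisense RNA, covers 31.6% of the windows of Gimap1, and the library kit does not mark the strand, so that their reads cannot be told apart there. Gimap1os itself was at 21.4, 19.7 and 23.4 CPM in CTCFfl/+ and at 22.1, 30.3 and 22.4 CPM in CTCFfl/fl libraries of the CD3/CD28 culture (log2 fold change 0.20, SE 0.13, limma, adjusted p = 0.33). The read-through gene model Gm28053, which joins exons of Gimap7, Gimap1 and Gimap5, was between 1.15 and 3.53 CPM in the 6 libraries.

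Of the 5 nearest measured genes on each side of the cluster, 1 rose and 3 fell in the CD3/CD28 culture. Lrrc61, 76.512 kb before the cluster, rose by 0.43 on the log2 scale (SE 0.13, limma, adjusted p = 0.041). Repin1, which encodes a zinc finger protein of DNA replication origins and lies 48.152 kb before the cluster, changed by -0.42 (SE 0.10, adjusted p = 0.0177). On the other side Igf2bp3, an RNA-binding protein gene 314.372 kb away, changed by -0.37 (SE 0.09, adjusted p = 0.0190), and Tra2a, a splicing factor gene 473.073 kb away, by -0.26 (SE 0.07, adjusted p = 0.034). Each of these calls was lost without some single library: Repin1 without CTCFfl/+ library 3 (0.089), Igf2bp3 without CTCFfl/+ library 1 (0.068) or 3 (0.093) or CTCFfl/fl library 1 (0.053), Lrrc61 without CTCFfl/+ library 2 (0.14) or 3 (0.12) or CTCFfl/fl library 1 (0.053) or 2 (0.10), and Tra2a without any of CTCFfl/+ library 1 (0.13) or 3 (0.12) or CTCFfl/fl library 1 (0.086) or 2 (0.056). The genes directly flanking the cluster, AI854703 and Tmem176b, and the remaining neighbours Gm7887, Zfp775, Tmem176a and Malsu1 were not called (adjusted p from 0.24 to 0.93), although leaving out a single CTCFfl/fl library brought Tmem176b (0.048 without library 1, with its sign changed to a log2 fold change of 1.01) and Tmem176a (0.039 without library 2) past the threshold.

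Genes that, like the Gimap family, mark resting and recirculating lymphocytes were read from a list of 25. Of these, 7 rose in the CD3/CD28 culture and none fell, against 9.88% of all genes called higher and 8.76% lower. The same shares of all genes apply to the counts of the neighbours above and of the lists below. The median log2 fold change of the 25 was 0.16, against 0.01 for all genes. Txnip, which encodes an inhibitor of glucose uptake, went from 126 to 173 CPM in the CTCFfl/+ libraries to 321 to 394 CPM in the CTCFfl/fl libraries, a log2 fold change of 1.22 (SE 0.12, limma, adjusted p = 0.000233). Pik3ip1, an inhibitor of PI3 kinase, rose by 1.11 (SE 0.14), the lymph node homing receptor Ccr7 by 0.68 (SE 0.08) and the transcription factor gene Ets1 by 0.47 (SE 0.07). These 4 passed the test under all 17 alternative settings. Of the other called genes, named outside the rule for named genes, S1pr1 also passed under all 17. Btg1 and Foxp1 were each lost under 7 of the 17 (adjusted p up to 0.12 and 0.13). The count of the list ranged from 5 to 9 when 1 library was left out. In LPS/IL4 0 of the 25 were called by limma or by edgeR and 1 by DESeq2 and without CTCFfl/fl library 2. There 6 had an unadjusted limma p below 0.05, against 6.65% of all genes, and the median log2 fold change was -0.06. The interaction was called for 5 of the 25, all higher in CD3/CD28, against 3.88% of all genes in this direction.

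**Figure D4:**
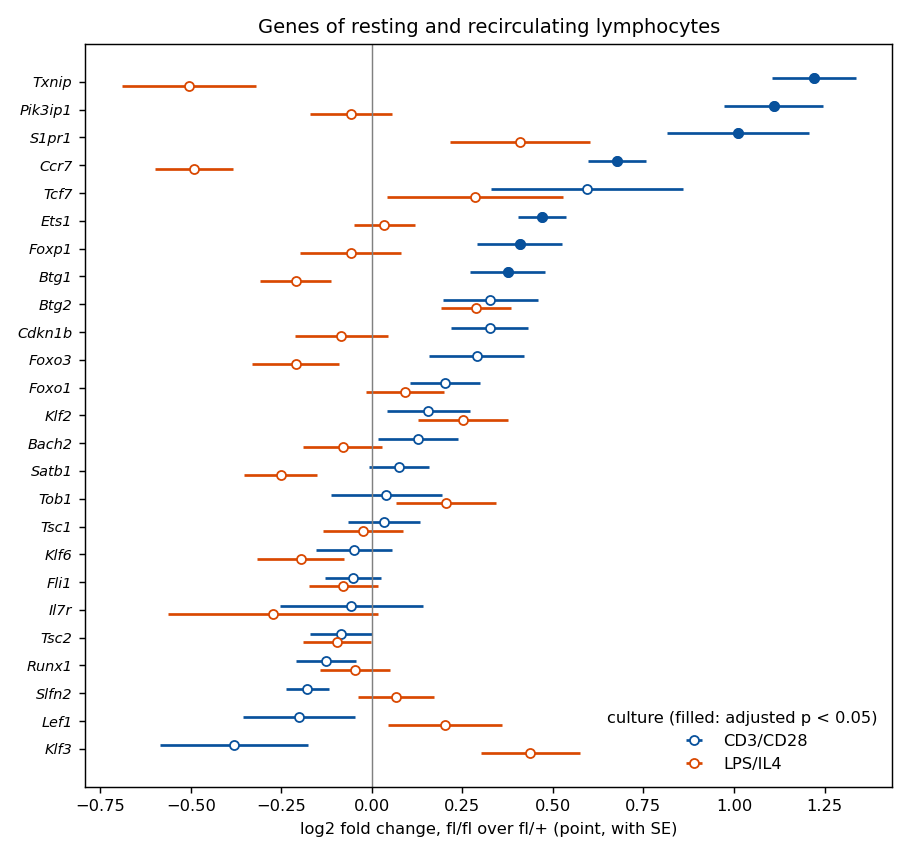
Log2 fold change (CTCFfl/fl over CTCFfl/+, point, with SE as a bar) of the 25 listed genes of resting and recirculating lymphocytes in the CD3/CD28 (blue) and LPS/IL4 (orange) cultures. Filled points passed an adjusted p of 0.05, which 7 genes did in CD3/CD28, led by Txnip at 1.22, and none in LPS/IL4.

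Partners described for GIMAP proteins in other work showed no common direction. Of 8 such genes, which encode BCL-2 family members, the autophagy protein GABARAPL2 and the kinase GSK3B, only Bcl2l11, the gene of the pro-apoptotic protein BIM, was called in the CD3/CD28 culture. It was at 202 to 228 CPM in CTCFfl/+ and 277 to 379 CPM in CTCFfl/fl libraries, a log2 fold change of 0.62 (SE 0.10, limma, adjusted p = 0.00312), and the median of the 8 was -0.01. Of the septins, the filament-forming relatives of the GIMAP proteins, 8 were tested. Sept6 (log2 fold change 0.34) and Sept1 (0.34) rose, and Sept3 (-0.87), Sept2 (-0.30) and Sept11 (-0.25, named outside the rule for named genes because the count is small) fell. The calls of Sept1, Sept2 and Sept11 were lost without single libraries (0.056 for Sept1 without CTCFfl/+ library 3, 0.060 for Sept2 without CTCFfl/+ library 1, and 0.061 to 0.11 for Sept11 without any CTCFfl/+ library or CTCFfl/fl library 1). Without CTCFfl/+ library 1 or 3 the count of septins called was 3.

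Of 12 transcription factors of the ETS, RUNX and Ikaros families and their partners, 4 were called in the CD3/CD28 culture. Ets1, Fli1 and Runx1 are also on the list of resting lymphocyte genes, so the call of Ets1 is counted in both lists. Ets1, a factor of resting lymphocytes, rose by 0.47 (SE 0.07, limma, adjusted p = 0.0016), Ikzf3 by 0.30 (SE 0.07) and Ikzf1 by 0.23 (SE 0.06), and Gabpa, an ETS factor, changed by -0.27 (SE 0.08). Ets1 passed under all 17 settings. Ikzf1 and Ikzf3 were lost whichever control library was left out, with adjusted p up to 0.10 and 0.062, and Gabpa was lost without any of CTCFfl/+ library 1 (0.13) or 3 (0.12) or CTCFfl/fl library 1 (0.093) or 3 (0.052). The count of the list fell to 1 without CTCFfl/+ library 1 or 3 and to 2 without CTCFfl/+ library 2. The median of the 12 was 0.02.

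Markers of other cell types were read because T cells, which are rich in Gimap RNA, were present in the co-culture. Among 22 T-cell markers the summed level was 185 to 209 CPM in CTCFfl/+ and 198 to 235 CPM in CTCFfl/fl libraries of the CD3/CD28 culture. The 9 defining markers summed to 130 to 145 CPM and 123 to 146 CPM. Of these, Cd3d, Cd3e, Cd4 and Bcl11b were at most at 0.178 CPM in every library of this culture, and Trac, the T-cell receptor constant gene, at most at 0.800 CPM. Cd8a was at 1.65 to 2.60 CPM. Most of the sum was Lck, which encodes a kinase of T-cell receptor signalling, at 83.6 to 107 CPM in CTCFfl/+ and 106 to 122 CPM in CTCFfl/fl libraries (log2 fold change 0.26, limma, adjusted p = 0.078). Of 15 T-cell markers tested 3 rose and 1 fell. Cd3g was at 0.718 to 1.12 CPM in CTCFfl/+ and 1.89 to 3.53 CPM in CTCFfl/fl libraries, Skap1 at 0.718 to 1.40 and 2.31 to 2.60 CPM, and Ctla4 at 30.2 to 41.5 and 50.0 to 70.1 CPM. Thy1 was lower, at 25.6 to 44.8 CPM against 10.8 to 18.3 CPM. The calls of Cd3g and Skap1 were lost without single libraries (every one for Skap1, adjusted p 0.054 to 0.11, and every one but CTCFfl/fl library 3 for Cd3g, 0.058 to 0.085). With 1 library left out, the count of the list ranged from 2 to 4. Of the 4 defining markers tested, 1 rose and 1 fell with all libraries. Their count ranged from 1 to 3 with 1 library left out, so a further defining marker could pass.

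B-cell markers were high throughout, with a sum of 8 genes of 3863 to 4275 CPM in CTCFfl/+ and 4487 to 4709 CPM in CTCFfl/fl libraries of the CD3/CD28 culture. Blk (0.69), Cd79a (0.35), Cd79b (0.24) and Cd22 (0.20) rose on the log2 scale, of which Blk passed under all 17 settings and Cd79a was lost without CTCFfl/+ library 3 (0.054), Cd79b without CTCFfl/+ library 1 (0.0999) or 3 (0.16) or CTCFfl/fl library 2 (0.076), and Cd22 without any CTCFfl/+ library (0.0502 to 0.13) or CTCFfl/fl library 3 (0.057). The count was then 2 without CTCFfl/+ library 1 and 1 without CTCFfl/+ library 3. The plasma cell markers Prdm1 (1.27) and Sdc1 (0.81) rose, 2 of 5 tested. Jchain (0.67, adjusted p = 0.057), Xbp1 (-0.22, 0.089) and Irf4 (-0.21, 0.088) did not pass by limma, and the sum of the 5 was 400 to 425 CPM in CTCFfl/+ and 358 to 430 CPM in CTCFfl/fl libraries. Without CTCFfl/fl library 2 the plasma cell count was 4, with 2 higher and 2 lower. Of 5 myeloid markers tested, Itgam (1.81), Tyrobp (1.57), Cst3 (0.34) and Ctss (0.31) rose, with a sum over 6 genes of 203 to 237 CPM in CTCFfl/+ and 279 to 294 CPM in CTCFfl/fl libraries. Of these, Ctss and Cst3 were lost without CTCFfl/+ library 1 (0.063 and 0.064), and likewise without CTCFfl/+ library 3 (0.067 and 0.061), Cst3 also without CTCFfl/+ library 2 (0.091) and CTCFfl/fl library 2 (0.051), which leaves 2 myeloid calls without CTCFfl/+ library 1 or 3. Of 2 NK cell markers tested, Prf1, which NK cells and cytotoxic T cells use, rose by 0.85, and Gzmb, a granule protease gene, was at -0.29 (limma, adjusted p = 0.53). The part of these markers in the rise of the Gimap genes was not tested.

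The genes most like the family over the 6 libraries of the CD3/CD28 culture were found by correlating each of 9891 genes with the mean standardized log2 level of the 8 members. Highest were Atp6v0d1 (Pearson r = 0.997), a subunit of the lysosomal proton pump, and Nckap1l (0.997), an actin regulator of blood cells, followed by Cul9 (0.994), Wbp1 (0.994), Pde6d (0.991) and Ckb (0.991). This is a description over 6 libraries that form 2 groups, picked as the highest of many values.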

How the data were processed

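PolyA RNA of 12 libraries was sequenced as 61-base single reads (TruSeq v2, without strand). The authors trimmed reads with cutadapt, estimated counts with RSEM 1.17 on the GRCm38 mouse transcriptome (Ensembl release 76, per the methods) and deposited edgeR-normalized CPM for 12699 genes. Within each library, 100.0% of the deposited CPM values could be divided by the worth of a single read to give a whole number (tolerance 0.01). These whole numbers are called reads here, and whether they were adjusted before deposit is not given in the sources used here. They carry the near-equal culture means described above, so they are not taken as raw counts. The depths, edgeR and DESeq2 rest on these same values and are not independent of any such adjustment. The values carried no authors' tests. Symbols came from a reference table (12586 genes) and positions from GENCODE M21.

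CTCFfl/fl was compared with CTCFfl/+ in each culture by limma 3.58.1 in R 4.3.3 (intensity trend, two-sided) on log2(CPM + 0.5), which understates changes of low genes, over genes with at least 1 CPM in 3 of 6 libraries. P-values were adjusted by Benjamini-Hochberg over all genes and called below 0.05. An interaction over 12 libraries compared the cultures, and single genes and ratios of adjacent genes were also tested by exact permutation. Scripts were tested on simulated data. edgeR 4.0.16 and DESeq2 1.42.0 on the recovered reads, other pseudocounts, scalings, filters and leaving out each library were the alternatives. Lists of 25 resting genes (1 further gene is not reported here), 8 GIMAP partners, 11 septins (8 tested), 12 factors and cell type markers were counted. Named were all members, Ctcf, 5 neighbours on each side, markers called, up to 4 called genes of a list by smallest adjusted p, and the 6 genes most alike, and some uncalled markers after their values were seen. Members and lists were chosen with earlier results of these data known. RSEM spreads reads shared by similar genes, and depth errors cover counting only.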

Additional observations from a re-analysis of the deposited data

Results flagged for a closer look

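By the limma interaction term, these named genes responded differently in the 2 cultures, each given as the log2 fold change in CD3/CD28 minus that in LPS/IL4. For Gimap7 the difference was 0.83 (adjusted p = 0.00864), from 0.53 in CD3/CD28 and -0.30 in LPS/IL4, and the groups were apart in opposite directions. For Gimap6 it was 0.61 (adjusted p = 0.0170), from 0.43 and -0.18. Among the genes of resting lymphocytes it was 1.72 for Txnip (adjusted p = 0.00464), 1.17 for Ccr7 (adjusted p = 0.0011), 1.17 for Pik3ip1 (adjusted p = 0.00385) and 0.44 for Ets1 (adjusted p = 0.0181). Of other named genes it was called for Btg1 (0.59, adjusted p = 0.033), Bcl2l11 (1.07, 0.0121), Ctla4 (1.28, 0.0119), Prdm1 (1.69, 0.0101), Itgam (1.47, 0.0196), the neighbour Lrrc61 (0.61, 0.044) and Atp6v0d1 (0.44, 0.041), and in the opposite direction for Sept3 (-1.25, 0.0103), Sept2 (-0.36, 0.041) and Thy1 (-1.63, 0.039). When 1 library was left out, the calls of Btg1, Sept2 and Atp6v0d1 were lost for 9 of the 12 libraries, that of Thy1 for 8 and that of Lrrc61 for 7, with adjusted p up to 0.11. That of Itgam was lost without CTCFfl/+ library 1 or 3 or CTCFfl/fl library 2 of the CD3/CD28 culture or CTCFfl/fl library 3 of LPS/IL4 (0.051 to 0.054), and that of Ets1 without CTCFfl/+ library 3 of the CD3/CD28 culture (0.052). Without the intensity trend these 7 calls were lost (0.055 to 0.098). With a replicate block those of Ets1, Sept2, Lrrc61 and Atp6v0d1 were lost (0.060 to 0.12), by edgeR those of Btg1 and Sept2 (both 0.051), and with quantile normalization or no filter that of Lrrc61 (0.055 and 0.051). Many of these genes were named because they were called in CD3/CD28, and Atp6v0d1 for its likeness to the Gimap levels there. That choice favours a difference between the cultures in advance. Over all 11847 genes tested, 897 were called for the interaction. The labels give the cultures as separate batches, and a batch and a culture cannot be told apart here. Groups of 3 libraries are too small for a test of single outlying libraries.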

How the results depend on the processing

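Of 448 recomputed log2 fold changes of the 8 Gimap genes, 433 kept their direction and their side of the threshold. The count of Gimap genes called in CD3/CD28 was 2 (Gimap5 and Gimap6) without the intensity trend, 3 to 5 when 1 library was left out, and 5 under all other settings. For the interaction it was 1 without the trend (Gimap7), 3 with DESeq2 and 2 to 3 when 1 library was left out. In LPS/IL4 it was 0 under every setting. The causes were not tested. Without the intensity trend the CD3/CD28 calls of the neighbours Lrrc61, Repin1 and Tra2a were lost too (adjusted p 0.052 to 0.10). So were those of Btg1, Foxp1, Gabpa, Ikzf1, Ikzf3, Sept1, Sept2, Sept11, Ctla4, Ctss, Cst3, Cd79a, Cd79b and Cd22 (0.061 to 0.12). With quantile normalization, and also with a replicate block, those of Lrrc61, Tra2a, Gabpa, Skap1 and Cd22 were lost (0.0504 to 0.18). That of Cst3 was lost with the block (0.0506). In 1 fit of all 12 libraries those of Foxp1, Sept11, Cd3g, Cd79b and Cd22 were lost (0.0507 to 0.086). Without the filter those of Lrrc61, Btg1 and Foxp1 were lost (0.0504 to 0.061), and with DESeq2 that of Skap1 (0.117). Near 0, Gimap8 changed sign in CD3/CD28 without CTCFfl/fl library 2 (-0.017, with a range of -0.017 to 0.087 when 1 library was left out) and in LPS/IL4 without CTCFfl/+ library 1 (0.015, range -0.082 to 0.015), and Gimap3 in LPS/IL4 without CTCFfl/+ library 2 (-0.00034, range -0.00034 to 0.054). So did the uncalled neighbours AI854703 (-0.061 with quantile normalization, and -0.19 to 0.50 without 1 library), Malsu1 (-0.0018 with quantile normalization, and -0.13 to 0.15 without 1 library), Tmem176b (0.36 with edgeR, 0.40 with DESeq2, and -1.08 to 1.01 without 1 library) and Zfp775 (-0.31 to 0.048 without 1 library).

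Over all genes the calls in CD3/CD28 numbered 2250, against 1092 without the trend and 1005 to 2321 when 1 library was left out. In LPS/IL4 they numbered 4, against 1 without the trend, 37 with DESeq2 and 2 to 75 without 1 library, and for the interaction 897, against 388 without the trend and 405 to 989 without 1 library. Replicate numbers are shared by the groups, but same-numbered libraries did not deviate together in CD3/CD28 (correlations over genes from -0.13 to 0.05). In LPS/IL4 these correlations ran from -0.12 to 0.39, and those of differently numbered libraries from -0.35 to 0.29. The highest, 0.39, was that of the libraries numbered 1, so pairing is left unsettled in LPS/IL4. The numbers were not taken as pairs. With a replicate block the Gimap counts were 5, 0 and 2 for CD3/CD28, LPS/IL4 and the interaction, and the counts over all genes 1870, 18 and 604. Low depth limits Gimap9 most.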
